A study of Mus musculus with 6 samples.

Results

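The 10 genes described here belong to the ATF4 stress response and to the synthesis of serine: Atf4, Ddit3, Trib3, Asns, Phgdh, Psat1, Psph, Shmt2, Mthfd2 and Slc7a5. They were chosen by name, and each symbol was matched to the Ensembl identifier in the count files. All 10 were found among the 54146 genes listed, and all 10 passed the filter on low counts that left 16897 genes for testing. Ddit3 matched 2 identifiers, and the one with reads was used, since the other had no read in any of the 6 libraries.

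The study raised the level of a microRNA, miR-3607, in the cortex of mouse embryos and measured RNA 24 h later. Plasmids were brought into the cortex by in utero electroporation at E14.5 (E, embryonic day), in which a plasmid solution is injected into the brain ventricle and driven into the cells beside it by electric pulses (5 pulses of 45 V). In the Mir group, 1 µg/µl of a plasmid expressed the miR-3607 precursor hairpin from the U6 promoter. In the Scr group, the same amount of plasmid expressed a scrambled hairpin as a negative control. Both groups also received 0.7 µg/µl of a plasmid with GFP under the CAG promoter, and GFP-positive cells were sorted by flow cytometry at E15.5. Each group had 3 libraries, and each library came from a pool of 2 embryos. GFP marks any cell that took up the plasmid or descends from one that did, so the sort does not separate progenitors from young neurons. The labels name both ICR and C57BL/6 as the strain. The mature microRNA was not analysed here, so its level in the sorted cells is not known from these counts.

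ATF4 is a transcription factor whose translation, more than its transcription, rises when eIF2 is phosphorylated by kinases that sense a lack of amino acids, unfolded protein in the endoplasmic reticulum, haem shortage or double-stranded RNA. ATF4 then switches on genes for making and importing amino acids, including the serine pathway, often through C/EBP-ATF composite elements in their promoters. Serine and the one-carbon units taken from it feed nucleotide synthesis in dividing cells such as the radial glia that line the embryonic ventricle.

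The sequence that sets the treatment apart is that of the microRNA itself. It is shown 5′ to 3′ as the 22 bases that follow the loop of the hairpin in the labels, with the seed, bases 2 to 8, in capitals:
miR-3607: gCATGTGAtgaagcaaatcagt
A target site for this seed reads TCACATG (pairing with bases 2 to 8) or CACATGA (pairing with bases 2 to 7 and followed by an A). Neither was found in the 3′ UTR of any of the 10 genes. For each gene, only the annotated transcript with the longest coding sequence was searched. The 3′ UTRs searched in the 10 genes ran from 81 to 1890 nt. Of 12760 tested genes with a 3′ UTR of at least 8 nt, 17.4% held at least 1 such site.

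The composite element was looked for as TGATGNAA, on both strands, in windows of 300 bases around the start of each gene (250 before and 50 after, RefSeq, GRCm38.p6). A window was at hand for 9 of the 10 genes, Slc7a5 being the exception, and 2 of the 9 held a match. Each is printed on the strand of its gene, which is the - strand for both, with 10 bases on either side, and the capitals mark the match:
Trib3, chr2:152344029-152344056: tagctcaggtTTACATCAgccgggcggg
Asns, chr6:7693215-7693242: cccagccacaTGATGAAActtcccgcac
In Trib3, a pseudokinase gene induced by ATF4 that feeds back on it, the letters read on the opposite strand and lay 15 bases past the RefSeq start site. In Asns, which encodes asparagine synthetase, they read on the gene's own strand and lay 23 bases before the RefSeq start site. The GENCODE spans given below for each gene start elsewhere. By those spans the Asns match lies inside the gene and the Trib3 match before its start. The Psat1 and Mthfd2 windows lie well inside the GENCODE spans of these genes. Over all genes with a window, 4.51% held a match, and a match in this short window is only a run of letters.

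The libraries held 12724511 to 16684038 counts assigned to genes, and normalisation factors ran from 0.9916 to 1.011. The assigned counts were 21.9 to 23.6% of the total in the files, summary lines for unassigned reads included. The summary line for alignments that were not unique made up 39.3 to 44.4% of that total, and these were not counted to genes. Whether this line counts each read once is not stated, so neither percentage is a sure share of reads. Levels are given in CPM, a gene's share of the normalised library total scaled to the same total for all libraries, and a gene was called when its adjusted p in edgeR's quasi-likelihood test was under 0.05. The labels call the sorted cells cortical progenitors, and progenitor markers were present in every library, with Pax6 at 65.4 to 149 CPM, Sox2 at 56 to 83.9 CPM and Eomes at 173 to 524 CPM. The 10 markers of excitatory neurons were present as well, at a summed 4590 to 7030 CPM. Mitochondrial genes took 0.787 to 0.906% of the counts in Scr and 0.663 to 0.735% in Mir. Of all genes tested, 1 was called, which is 0.00592%.

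None of the 10 genes was called, by edgeR or by DESeq2, and the Mir and Scr libraries overlapped for all 10. The means of 6 genes were higher in Mir and those of 4 were lower, and the median log2 fold change was 0.01, against -0.01 over all genes tested. Of all genes tested, 48.8% had a higher mean in Mir. At an unadjusted p under 0.05, 0 of the 10 genes were higher in Mir and 0 were lower, where 6.57% of all genes tested were higher and 7.93% were lower. Non-overlapping groups, found for 0 of the 10 genes, were found higher in Mir for 9.72% of all genes and lower for 10.3%. DESeq2 called 3.64% of the 14664 genes to which it gave an adjusted p (Trib3 received none), and limma-voom called 0. These p-values rest on the spread among embryo pools within a group. In sorted bulk samples fewer cells of a type and less RNA per cell cannot be told apart.

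**Figure D1:**
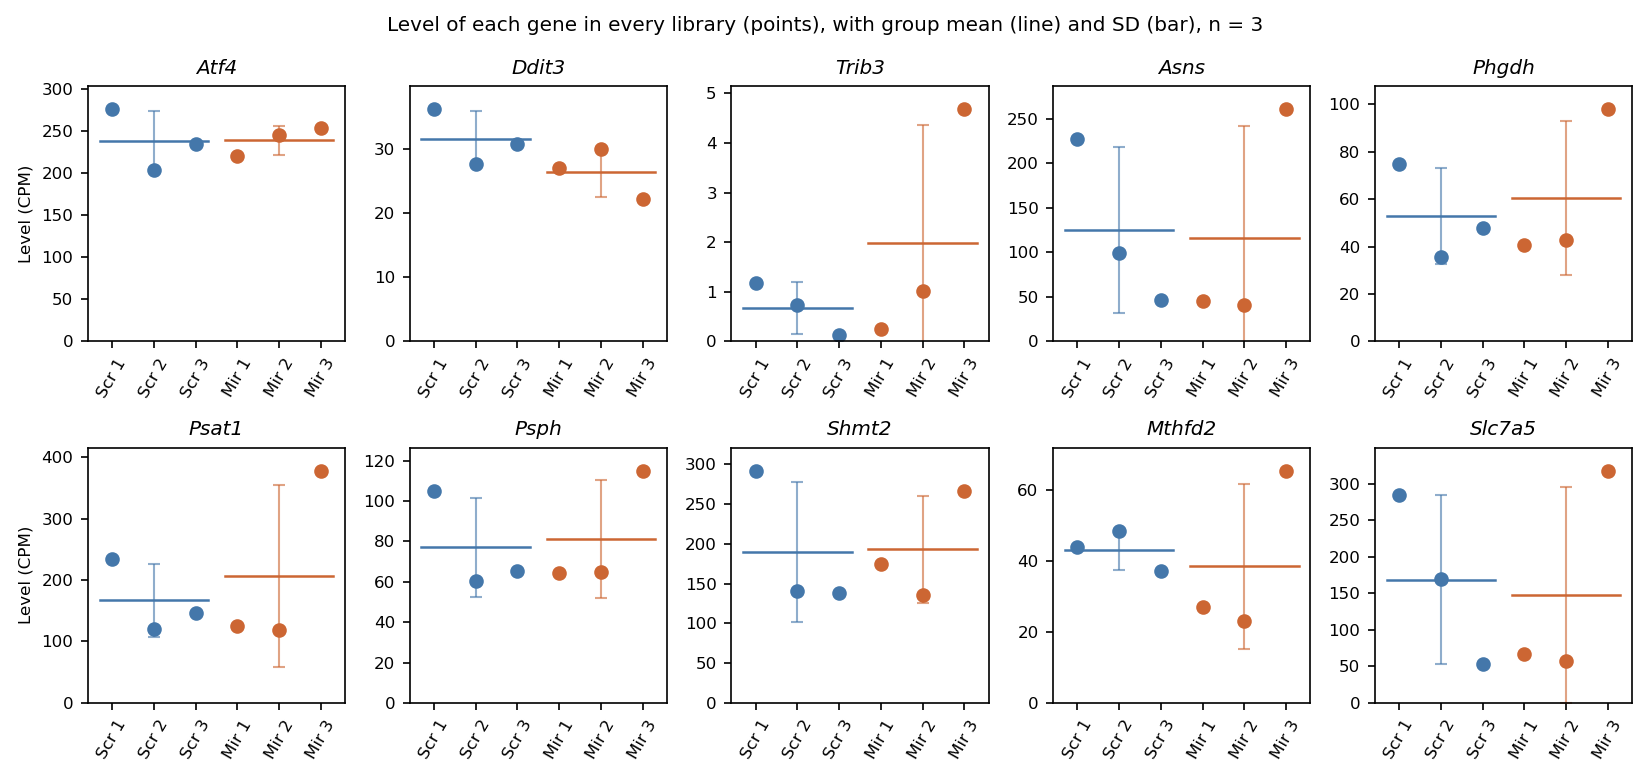
Level of each of the 10 genes in CPM (vertical axes, each from 0) in the 3 Scr and 3 Mir libraries (horizontal axis). Points are libraries, lines are group means and bars are SD (n = 3), cut at 0 for Trib3, Asns and Slc7a5; Atf4 stays within 204 to 276 CPM, while Asns and Slc7a5 are high in Scr 1 and Mir 3.

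Atf4 (ENSMUSG00000042406, chr15:80255184-80257541, + strand) encodes the transcription factor itself. It stood at 276, 204 and 235 CPM in Scr 1, 2 and 3 and at 220, 245 and 254 CPM in Mir 1, 2 and 3. The Mir values lay inside the Scr range, and the means were 238 ± 35.7 and 239 ± 17.6 CPM (SD, n = 3). The log2 fold change of Mir over Scr was 0.01 ± 0.12 (SE), with a 95% interval from -0.28 to 0.29 and an adjusted p of 0.986. This interval was the narrowest of the 10, and it covers the transcript only, not ATF4 protein.

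Ddit3 (ENSMUSG00000025408, chr10:127290774-127296288, + strand) encodes CHOP, a partner and target of ATF4 that is linked to cell death under prolonged stress. Its levels were 36.2, 27.7 and 30.8 CPM in Scr and 27.1, 30 and 22.2 CPM in Mir. Mir 3 held the lowest value and Scr 1 the highest, but Mir 2 lay within the Scr range. Mir over Scr gave a log2 fold change of -0.26 ± 0.16, with an interval from -0.63 to 0.12, and its unadjusted p of 0.152 (edgeR's quasi-likelihood test, adjusted p = 0.502) was the smallest among the 10 genes. Its exons overlap those of Mars on the other strand by 68 bp, and the library kit does not mark strand.

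Trib3 (ENSMUSG00000032715, chr2:152337422-152344032, - strand) was close to the limit of detection in most libraries. Its raw counts were 15, 10 and 2 in Scr and 4, 16 and 69 in Mir, or 1.17, 0.724 and 0.12 CPM and 0.254, 1.02 and 4.68 CPM. Mir 3 stood well above the other 5 libraries, and Mir 1 lay below Scr 1 and Scr 2. EdgeR estimated a log2 fold change of 1.58 ± 1.06, with an interval from -0.89 to 4.05 and an adjusted p of 0.529, and of -0.05 without Mir 3.

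Slc7a5 (ENSMUSG00000040010, chr8:121881150-121907694, - strand) encodes LAT1, the light chain of the transporter that imports leucine and other large neutral amino acids. It stood at 285, 170 and 52.8 CPM in Scr and at 67.2, 57.2 and 318 CPM in Mir. Mir 1 and Mir 2 were near the lowest Scr library and Mir 3 exceeded all of Scr, so the spread within each group was larger than the difference between the means of 169 ± 116 and 148 ± 148 CPM. The log2 fold change was -0.20 ± 0.77, with an interval from -1.99 to 1.59 and an adjusted p of 0.932. The heavy chain that LAT1 pairs with, Slc3a2, read 275, 226 and 142 CPM in Scr and 170, 156 and 316 CPM in Mir, with a log2 fold change of -0.00 ± 0.32. The heavy chain thus had its highest values in the same pair of libraries, Mir 3 and Scr 1, over a narrower range.

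Asns (ENSMUSG00000029752, chr6:7675169-7693254, - strand) encodes the enzyme that makes asparagine from aspartate and glutamine. Its levels were 228, 99.6 and 46.4 CPM in Scr and 45.3, 40.5 and 261 CPM in Mir. As with Slc7a5, Scr 1 and Mir 3 were high, Scr 2 was intermediate, and Scr 3, Mir 1 and Mir 2 were low. Mir over Scr gave a log2 fold change of -0.11 ± 0.81, with an interval from -1.99 to 1.77 and an adjusted p of 0.963, so these libraries cannot separate a large fall from a large rise.

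Phgdh, Psat1 and Psph encode the enzymes that turn the glycolytic intermediate 3-phosphoglycerate into serine, in that order. Phgdh (ENSMUSG00000053398, chr3:98313170-98339990, - strand), the entry enzyme, read 75.0, 35.4 and 47.9 CPM in Scr and 40.6, 42.7 and 97.9 CPM in Mir. Mir 3 and Scr 1 were again the highest libraries, and the remaining values lay between 35.4 and 47.9 CPM. EdgeR estimated a log2 fold change of 0.20 ± 0.39, with an interval from -0.72 to 1.11 and an adjusted p of 0.855. The Phgdh level is uncertain, because 47.8% of the runs of 50 bases, the read length, in its exons also occur in 20 other annotated genes, and such reads cannot be placed uniquely. The 18 of these genes that are in the files together held 22.5, 10.5 and 11.9 CPM in Scr and 10.9, 11.9 and 27.0 CPM in Mir. Summed with Phgdh they gave 97.5, 45.9 and 59.7 CPM in Scr and 51.5, 54.7 and 125 CPM in Mir, with the same 2 libraries on top. The sum holds only reads placed at 1 gene and does not recover the shared reads, so the level of Phgdh stays uncertain.

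Psat1 (ENSMUSG00000024640, chr19:15904678-15947337, - strand), the aminotransferase of the pathway, read 234, 121 and 147 CPM in Scr and 126, 118 and 378 CPM in Mir. Mir 3 was the highest library and Scr 1 came next, while Mir 1 and Mir 2 lay at the low end of Scr. For Psat1, edgeR estimated a log2 fold change of 0.31 ± 0.47, with an interval from -0.78 to 1.39 and an adjusted p of 0.8. Psph (ENSMUSG00000029446, chr5:129765558-129787449, - strand), the phosphatase of the last step, read 105, 60.5 and 65.5 CPM in Scr and 64.4, 64.6 and 115 CPM in Mir. Scr 1 and Mir 3 stood apart at the top, and the other 4 libraries lay between 60.5 and 65.5 CPM. Its log2 fold change was 0.08 ± 0.29, with an interval from -0.59 to 0.75 and an adjusted p of 0.928. The exons of Psph overlap those of Cct6a on the other strand by 452 bp, so some reads of the 2 genes cannot be told apart.

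Shmt2 and Mthfd2 encode mitochondrial enzymes of the one-carbon pathway fed by serine. Shmt2 (ENSMUSG00000025403, chr10:127517123-127522444, - strand) read 292, 141 and 138 CPM in Scr and 175, 136 and 267 CPM in Mir. Scr 1 was the highest library and Mir 3 the next, and the group means of 190 ± 88.4 and 193 ± 67.5 CPM differed far less than the libraries of either group. The log2 fold change was 0.02 ± 0.35, with an interval from -0.79 to 0.82 and an adjusted p of 0.988.

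Mthfd2 (ENSMUSG00000005667, chr6:83305691-83325908, - strand) differed from the other enzymes in its order of libraries. It read 43.8, 48.4 and 37.1 CPM in Scr and 27.0, 23.1 and 65.3 CPM in Mir. Mir 1 and Mir 2 lay below all 3 Scr libraries and Mir 3 lay above them. With all libraries, its log2 fold change was -0.17 ± 0.37, with an interval from -1.03 to 0.70 and an adjusted p of 0.873. Without Mir 3 it was -0.80 with an adjusted p of 0.14 in edgeR and -0.78 with an adjusted p of 0.00305 in DESeq2, the only alternative in which any of the 10 genes was called.

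**Figure D2:**
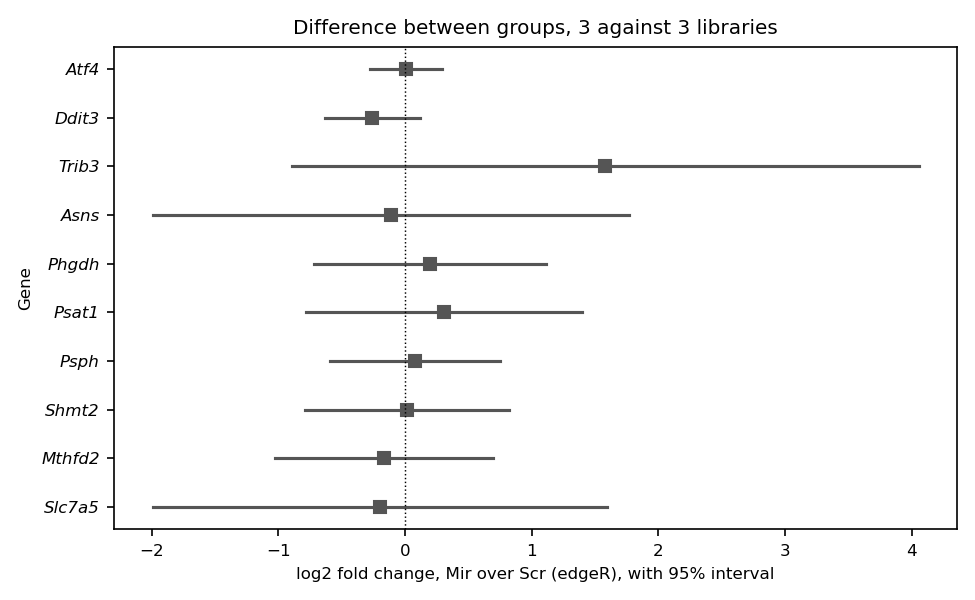
Log2 fold change of Mir over Scr (horizontal axis, edgeR) for the 10 genes (vertical axis); squares are estimates from 3 against 3 libraries and lines are 95% intervals. Every interval crosses 0, and they run from narrow for Atf4 (-0.28 to 0.29) to wide for Trib3 (-0.89 to 4.05).

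The direction of most of these small differences rested on Mir 3. With Mir 3 left out, all 10 genes had a lower mean in Mir, from -0.05 for Atf4 and Trib3 to -1.45 for Slc7a5 and -1.55 for Asns, and edgeR called none of them. With Scr 1 left out, the log2 fold change of Asns was 0.68 and that of Slc7a5 was 0.43. With Scr 2 left out, only 2 of the 10 genes had a higher mean in Mir.

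The spread over libraries differed widely among the 10 genes. The highest library exceeded the lowest by 1.35 times for Atf4, 1.63 times for Ddit3, 1.9 times for Psph and 2.15 times for Shmt2. The ratio was 2.77 for Phgdh, 2.83 for Mthfd2, 3.2 for Psat1, 6.03 for Slc7a5, 6.44 for Asns and 38.9 for Trib3, whose counts are low. Over the 10425 tested genes with a mean of at least 10 CPM, the median ratio was 1.41. Atf4 thus lay at the 40.8th percentile of those genes, while Asns and Slc7a5 lay at the 99.1st and the 98.9th. Mir 3 was the highest library for 7 of the 10 genes and Scr 1 for the other 3.

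**Figure D3:**
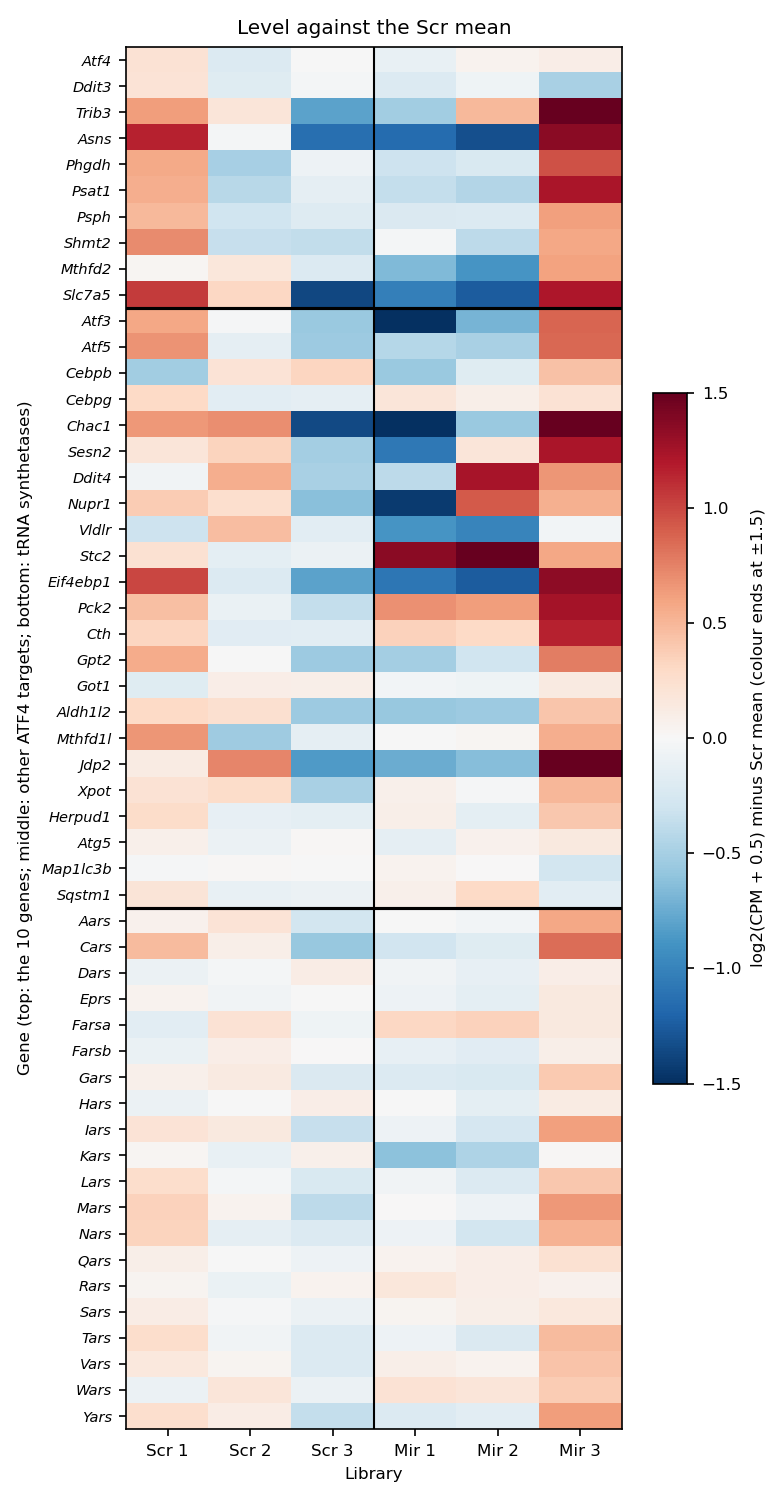
Level in each library (columns) of the 10 genes, of other ATF4 targets and of cytosolic tRNA synthetases (rows, top to bottom), as log2(CPM + 0.5) minus the Scr mean; red is above and blue below, and the colour ends at ±1.5. The Scr 1 and Mir 3 columns are red for most of the 10 genes, and the Atf4 row is pale throughout.

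Scr 1 and Mir 3, 1 library of each group, were the 2 highest libraries for 8 of the 10 genes, the exceptions being Ddit3 and Mthfd2. This count was chosen after the values were seen. For 2 of the 8 genes the margin was small. Trib3 stood at 1.17 CPM in Scr 1 against 1.02 CPM in Mir 2 (15 and 16 reads), and Atf4 at 254 CPM in Mir 3 against 245 CPM in Mir 2. Scr 1 and Mir 3 were also the highest for 9 of 23 other ATF4 targets and for 3 of 12 amino acid transporters. These 2 libraries were the highest for 10 of 20 cytosolic tRNA synthetases, which attach amino acids to tRNA and include many ATF4 targets. They were the highest for 3 of 22 serine, glycine and one-carbon enzymes outside the 10 genes and for 2 of 20 genes of the ATF6 and XBP1 arms of the unfolded protein response. Among all genes tested the share was 4.07%, and it was 0 of 14 for the eIF2 kinases and other genes of eIF2 control. The median of the 10 genes relative to the Scr mean was 0.56, -0.19 and -0.20 in Scr 1, 2 and 3 and -0.33, -0.31 and 0.79 in Mir 1, 2 and 3, on the scale of log2(CPM + 0.5). For the other ATF4 targets it was 0.28, -0.01 and -0.36 in Scr and -0.39, -0.02 and 0.54 in Mir. The tRNA synthetases followed the same order at the top over a smaller range, from -0.15 to 0.38.

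**Figure D4:**
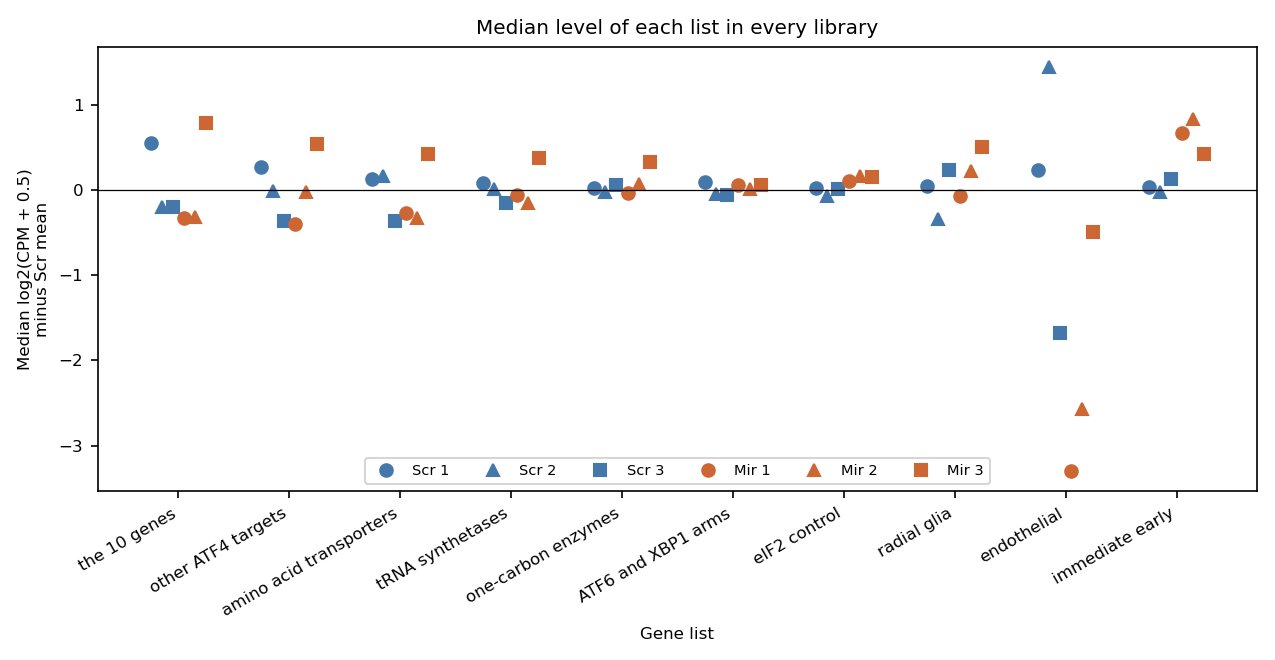
Median of log2(CPM + 0.5) minus the Scr mean (vertical axis) for each gene list (horizontal axis); each point is a library. For the 10 genes Mir 3 (0.79) and Scr 1 (0.56) lie above the other 4 libraries, while for endothelial markers Scr 2 (1.45) is the highest.

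Per kilobase of exon, Atf4 had the highest level of the 10, with a mean of 101 CPM per kb over the 6 libraries, followed by Shmt2 at 61.6, Psat1 at 44.0, Asns at 43.9 and Slc7a5 at 42.7. Phgdh came next at 22.8 CPM per kb, then Psph at 18.3, Ddit3 at 16.9, Mthfd2 at 11.7 and Trib3 at 0.625. The ranges of neighbours in this order overlapped over the libraries in every case but Mthfd2 and Trib3. Compared within each library, Atf4 exceeded Shmt2 and Phgdh exceeded Psph in all 6. The other overlapping neighbours changed order between libraries. Among 16887 genes with a length, the levels ran from the 12.7th percentile for Trib3 to the 97th for Atf4.

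The genes with the most similar pattern over the 6 libraries were found from the root mean square difference of centred log2(CPM + 0.5) values, among 10424 other genes with a mean of at least 10 CPM. For Slc7a5 these were Asns (0.195), Eif4ebp1 (0.317), which encodes the translation inhibitor 4E-BP1, and Chac1 (0.474), which encodes a glutathione-degrading enzyme. Eif4ebp1 read 44.8, 19.2 and 12.5 CPM in Scr and 10.2, 9.01 and 56.7 CPM in Mir, and Chac1 read 11.9, 12.3 and 2.59 CPM and 2.16, 4.85 and 27.1 CPM. All 3 are known ATF4 targets. All 3 had their highest value in Mir 3, as Slc7a5 did, which follows from choosing them by likeness to it. No window was at hand for Eif4ebp1. The Chac1 window held the composite letters on the opposite strand, 193 bases before the start site. Over all genes with a window, 4.51% held a match. The Chac1 match is printed on the + strand of the gene:
Chac1, chr2:119351039-119351066: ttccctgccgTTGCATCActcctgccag

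For Phgdh the nearest genes were Gm7901 (0.137), a processed pseudogene that shares read-length sequence with it, Hes1 (0.137), a Notch target of radial glia, and Psat1 (0.150). Hes1 read 16.6, 8.83 and 10.1 CPM in Scr and 9.35, 10.7 and 19.0 CPM in Mir. For Atf4 the nearest were Fahd1 (0.029), Hspa8 (0.030) and Maml2 (0.039), small differences among genes that hardly varied. Among the 10 genes themselves, Phgdh and Psat1 (0.150) and Psph and Shmt2 (0.160) were the closest pairs, and Ddit3 and Asns (1.15) were the farthest apart.

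Markers of other cell types also varied over the libraries. The 11 radial glia markers summed to 1520 to 2130 CPM in Scr and 1800 to 2710 CPM in Mir, with the highest sum in Mir 3 and none of the 11 at 0 in any library. The 10 endothelial markers summed to 133, 300 and 57.1 CPM in Scr and 34.3, 37.4 and 101 CPM in Mir. Most of the sums in Mir 1 and Mir 2 came from Slco1c1 (20 and 24.4 CPM) and Mfsd2a (12.5 and 9.58 CPM). Endothelial cells are known to be rich in Slc7a5, and a gate on GFP would remove those that took up no plasmid. Cldn5, Pecam1 and Cdh5 were at 0 in both Mir 1 and Mir 2, and Kdr, Flt1 and Tek in 1 of them. The immediate early genes, which rise within minutes of stimulation or handling, summed to 365 to 420 CPM in Scr and to 848, 1000 and 424 CPM in Mir, so Mir 3 resembled Scr in their sum. Mir 3 also stood apart from Mir 1 and Mir 2 in other lists. The blood markers summed to 242, 858 and 565 CPM in Scr and 53.2, 1.6 and 575 CPM in Mir, with 3 of the 6 at 0 in some library. The microglia markers summed to 18.2, 46.8 and 59.1 CPM in Scr and 10.1, 12.2 and 42.1 CPM in Mir, with 6 of the 8 at 0 in some library. Csf1r made up most of the sums in Mir 1 and Mir 2, at 10 and 11 CPM. The inhibitory neuron markers, none of them at 0, summed to 246, 951 and 335 CPM in Scr and 130, 110 and 310 CPM in Mir. Mir 3 was thus above Mir 1 and Mir 2 in these 3 lists. Intermediate progenitor markers went the other way, at 2690, 1740 and 2330 CPM in Scr and 3220, 3660 and 2500 CPM in Mir. Pericyte markers summed to 25.5 to 134 CPM in Scr and to 3.69, 26.8 and 33.5 CPM in Mir, with Vtn at 23.9 CPM in Mir 2. Meningeal markers summed to 10.5 to 27.8 CPM in Scr and to 1.02, 206 and 9.64 CPM in Mir, so Mir 2 alone stood high. The part of any of these in the levels of the 10 genes was not tested.

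The genes upstream of ATF4 protein were read next, from a list of 14: the 4 eIF2 kinases, Gcn1l1 and Impact, which act on the kinase GCN2, the phosphatase subunits Ppp1r15a and Ppp1r15b, the alpha subunit of eIF2 itself (Eif2s1), and 5 subunits of its exchange factor eIF2B (Eif2b1 to Eif2b5). Of these, 12 had a higher mean in Mir and 2 a lower one, where 48.8% of all genes tested had a higher mean. The eIF2B subunits were 5 of the 12, with log2 fold changes of only 0.05 to 0.18. Over the list the median log2 fold change was 0.15, and edgeR and DESeq2 called 0. At an unadjusted p under 0.05, 3 were higher and 1 was lower, where 6.57% of all genes tested were higher and 7.93% were lower. Eif2ak3, the PERK kinase of the endoplasmic reticulum, read 18.5, 17.0 and 18.3 CPM in Scr and 22.4, 21.5 and 26.5 CPM in Mir (log2 fold change 0.39 ± 0.14, edgeR adjusted p = 0.29). Gcn1l1, the activator of the amino acid sensing kinase GCN2, read 87.2, 70.3 and 75.0 CPM in Scr and 98.2, 91.9 and 95.2 CPM in Mir (0.30 ± 0.10, edgeR adjusted p = 0.278). Both were higher in all 3 Mir libraries than in any Scr library. Groups without overlap were found for 5 of the 14 genes with Mir higher and for 1 with Mir lower, against 9.72% and 10.3% of all genes tested. Ppp1r15a, the stress-induced subunit that directs dephosphorylation of eIF2, lay above Scr in all 3 Mir libraries (0.30 ± 0.12, edgeR adjusted p = 0.312), and Impact, an inhibitor of GCN2 activation, lay below (-0.30 ± 0.11, edgeR adjusted p = 0.295). The other kinases had log2 fold changes of 0.08 ± 0.08 for Eif2ak1, 0.26 ± 0.46 for Eif2ak2 and 0.35 ± 0.17 for Eif2ak4, with overlapping groups.

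Of 25 other ATF4 targets, 23 were tested, and 17 had a higher mean in Mir and 6 a lower one (median log2 fold change 0.12). EdgeR called 0, 2 were higher at an unadjusted p under 0.05, and DESeq2 called those 2. Of all genes tested, 48.8% had a higher mean in Mir and 6.57% were higher at this p. DESeq2 called 3.64% of the 14664 genes to which it gave an adjusted p, in either direction. Atf3 and Nupr1 received none. Groups without overlap and with Mir higher were found for 2 of the 23, against 9.72% of all genes tested. Aldh1l2 and Mthfd1l stand both in this list and among the one-carbon enzymes. Stc2, a secreted glycoprotein gene, read 5.53, 4.13 and 4.34 CPM in Scr and 12.7, 13.9 and 7.19 CPM in Mir (1.27 ± 0.29, adjusted p = 0.206 in edgeR and 0.00921 in DESeq2). Pck2, the mitochondrial phosphoenolpyruvate carboxykinase gene, read 25.1, 16.9 and 14.1 CPM in Scr and 29.6, 28.4 and 44.0 CPM in Mir (0.86 ± 0.26, adjusted p = 0.244 in edgeR and 0.0363 in DESeq2). Both genes were named because their groups did not overlap, so their place above every Scr library follows from that choice. For Stc2, Mir 3 was the lowest of the Mir libraries.

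Of 12 amino acid transporters, 5 had a higher mean in Mir and 7 a lower one, edgeR and DESeq2 called 0, and 1 was lower at an unadjusted p under 0.05. This was Slc38a1, a glutamine transporter gene, at 373, 316 and 335 CPM in Scr and 283, 282 and 297 CPM in Mir (-0.25 ± 0.09, edgeR adjusted p = 0.282). Of 22 tested serine, glycine and one-carbon enzymes, 13 had a higher mean and 9 a lower one, edgeR and DESeq2 called 0, and at an unadjusted p under 0.05, 2 were higher and 1 was lower. Gart, which encodes an enzyme of purine synthesis, had a log2 fold change of 0.28 ± 0.09 (edgeR adjusted p = 0.25), and Mtr, the methionine synthase gene, one of 0.58 ± 0.22 (edgeR adjusted p = 0.304). Of 20 tRNA synthetases, 15 had a higher mean and 5 a lower one, and edgeR and DESeq2 called 0. Wars, the tryptophan enzyme, was the 1 higher at an unadjusted p under 0.05 (0.26 ± 0.11, edgeR adjusted p = 0.339). Of all genes tested, 48.8% had a higher mean in Mir, 6.57% were higher at this p and 7.93% were lower.

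The ATF6 and XBP1 arms of the unfolded protein response, which act beside the PERK and ATF4 arm, had 12 genes with a higher mean in Mir and 8 with a lower one among 20. EdgeR called 0, DESeq2 called 1, and 2 were lower at an unadjusted p under 0.05. Of all genes tested, 48.8% had a higher mean in Mir and 7.93% were lower at this p. DESeq2 called 3.64% of the genes to which it gave an adjusted p, in either direction. Xbp1, the transcription factor gene that heads its arm, read 194, 202 and 161 CPM in Scr and 132, 133 and 127 CPM in Mir (-0.51 ± 0.10, adjusted p = 0.195 in edgeR and 0.00568 in DESeq2). All 3 Mir libraries lay below all of Scr, which held for 10.3% of all genes tested. Dnajc3, a chaperone gene of the endoplasmic reticulum, had a log2 fold change of -0.34 ± 0.14 (edgeR adjusted p = 0.324). Hspa5, the gene of the chaperone BiP, had one of 0.03 ± 0.12 (edgeR adjusted p = 0.938) with overlapping groups.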

How the data were processed

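RNA was measured by SMART-seq v4 libraries, which do not mark strand, sequenced as 50-base single reads, in 3 Scr and 3 Mir samples grouped by their labels. The deposited files hold whole-number counts of reads per Ensembl gene. Per the submitters' processing notes, the tools were HISAT2 2.1.0, HTSeq 0.11.0 and DESeq2 1.18.1 with mm10; no strand setting or counting annotation is named in these sources. The summary lines for unassigned reads entered neither library sizes nor tests.

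From the deposited counts, all 16897 genes that passed filterByExpr were fitted together (edgeR 4.0.16, TMM scaling, quasi-likelihood test, Benjamini-Hochberg adjustment over all genes tested, R 4.3.3), with SE and 95% intervals derived from the same fit. The biological coefficient of variation was 23.6%. Fold changes are Mir over Scr. Alternatives were DESeq2 1.42.0, limma-voom 3.58.1, other size factors, no filter, a replicate block and left-out libraries; DESeq2 with left-out libraries was added after the data were seen. The fit was tested on simulated data. The replicate numbers are not said to pair the samples. Libraries of 1 group differed by more than sampling noise (chi-square per degree of freedom 7.69 to 25.6), so none was a copy.

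Symbols, positions and exon lengths came from GENCODE M21 (GRCm38), which gave symbols to 54079 of the 54146 identifiers. The 10 genes and all lists were chosen with earlier results of these data known. Beyond the 10, each pathway list contributed at most 4 genes with p under 0.05 and non-overlapping groups, plus the eIF2 kinases, Ppp1r15a, Slc3a2, Hspa5 and Xbp1 whatever their values, and the 3 genes nearest to Atf4, Phgdh and Slc7a5. The values of 1 gene that this rule names are not reported here.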

Additional observations from a re-analysis of the deposited data

How the results depend on the processing

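Over all genes tested, edgeR called 0 genes higher and 1 lower in Mir. These counts were 15 and 16 with no filter on low counts, 211 and 323 with DESeq2, 0 and 0 with limma-voom, and 10 and 19 without both Scr 2 and Mir 3. Leaving out 1 library at a time, edgeR called 0 genes higher and 0 to 2 lower, and DESeq2 called 41 to 285 higher and 67 to 809 lower, the last without Mir 3; the cause was not tested. With the replicate number as a block, edgeR called 0 genes higher and 0 lower. The deviations of same-numbered samples from their group means had correlations of 0.248, -0.147 and -0.0866. Deviations within a group sum to 0 for each gene, so these values cannot show whether the numbers pair the samples.

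The number of the 10 genes whose mean was higher in Mir was 6 with all libraries, 0 to 9 with 1 library left out and 1 without both Scr 2 and Mir 3. Leaving out 1 library at a time, with the lowest and highest value over edgeR and DESeq2, the log2 fold change ran from -0.093 to 0.13 for Atf4, -0.0594 to 2.27 for Trib3, -1.55 to 0.68 for Asns, -0.36 to 0.54 for Phgdh, -0.47 to 0.64 for Psat1, -0.27 to 0.37 for Psph, -0.31 to 0.47 for Shmt2, -0.80 to 0.11 for Mthfd2 and -1.45 to 0.43 for Slc7a5. Without both Scr 2 and Mir 3 it was -0.14 for Atf4, -0.56 for Phgdh, -0.64 for Psat1, -0.40 for Psph and -0.47 for Shmt2. Ddit3 had a lower mean in Mir under all 18 alternatives. Over these alternatives, 132 of the values for the 10 genes kept their sign, of which 127 stayed on their side of the threshold and 5, DESeq2 values of Trib3, had no adjusted p. A further 47 changed sign, and 1, Mthfd2 in DESeq2 without Mir 3, passed the threshold. With 3 pools per group, the intervals of Trib3, Asns and Slc7a5 leave large differences in either direction undetectable, and the 69 reads or fewer behind each Trib3 value limit it further.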
